A study of Mus musculus with 14 samples.

Results

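The spread among uteri of the same group was described over all 14 of the 14 arrays of the series, by setting each gene's log2 signal on an array against the mean of that array's own group. Whole uteri of C57BL/6 mice at day 3.5 of gestation, with the morning of the vaginal plug counted as day 0.5, were hybridised to one-colour Affymetrix arrays, 1 array per uterus. The groups were Folr4-/- females given folinic acid (KO folinic acid, 4 arrays), Folr4-/- females given saline (KO saline, 3 arrays), wild-type females given folinic acid (control folinic acid, 3 arrays) and wild-type females given saline (control saline, 4 arrays). Folinic acid is a reduced folate, injected here into the peritoneum at 12.5 mg/kg on 2 occasions, 10 and 3 days ahead of mating. The labels call the arrays biological replicates of uteri, and 2 pairs of titles within a group share a number (control folinic acid replicates 1 and 2, and control saline replicates 2 and 3). P-values below measure the spread between these samples.

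Early pregnancy in the mouse uterus runs on a sequence of ovarian hormones. Oestrogen around mating drives division and secretion of the epithelium and draws leukocytes into the tissue, and progesterone from the new corpora lutea then takes over, stops epithelial division, and turns on receptivity genes such as Ihh, the epithelial signal to the stroma, and Acod1, an itaconate-making enzyme of the luminal epithelium. A whole uterus also brings the myometrium, vessels, mesometrial fat and, at its lower end, the cervix into the same RNA. Genes of these hormone phases, of immune cells and of neighbouring tissues are therefore described side by side.

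The uterus label was borne out by its markers on every array. The epithelial keratin Krt8 ranged over 5566 to 16693 signal units, the smooth muscle myosin Myh11 over 9422 to 20003, the stromal proteoglycan Dcn over 23060.4 to 37193 and the oestrogen receptor Esr1 over 9956 to 15449.9. Folr4, listed under its current name Izumo1r, was dim, with signals of 6.14 to 70.2 and a median of 11.4 in the 7 KO arrays, against 13.5 to 72.4 and a median of 46.9 in the 7 control arrays. These ranges overlapped, and the deleted part of the gene is not given in the sources used here, so the probe set does not check the genotypes. The ratio of 3′ to 5′ beta-actin signal, a measure of RNA integrity, ran between 1.54 and 3.64, with the highest on control saline replicate 3 and the lowest on KO folinic acid replicate 1.

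Most genes were steady among uteri of one group, and a small set was not. Among 11269 genes measured above the filter on dim probe sets (a mean signal of 134), the within-group SD on the log2 scale, from 4 group means and 10 residual degrees of freedom, had a median of 0.27, which is 1.21-fold. The SD was 0.13 at the 5th percentile and 0.66 at the 95th. An SD of at least 1, a doubling, was reached by 111 of the 11269 genes, 0.985%, and all 111 lay at least 2 times above the SD that the trend over signal gives for genes of their level. The median SD was 0.36 even in the dimmest quartile, so the cut at 1 largely sets that outcome. Of the 111, 64 were in the dimmest quartile of genes by mean signal and 15 in the brightest. At the edge of this set stood Calb1 (1.006) and Arvcf (1.002) inside it, and Igkv8-30 (0.9996) and C1qa (0.996) outside it.

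**Figure D1:**
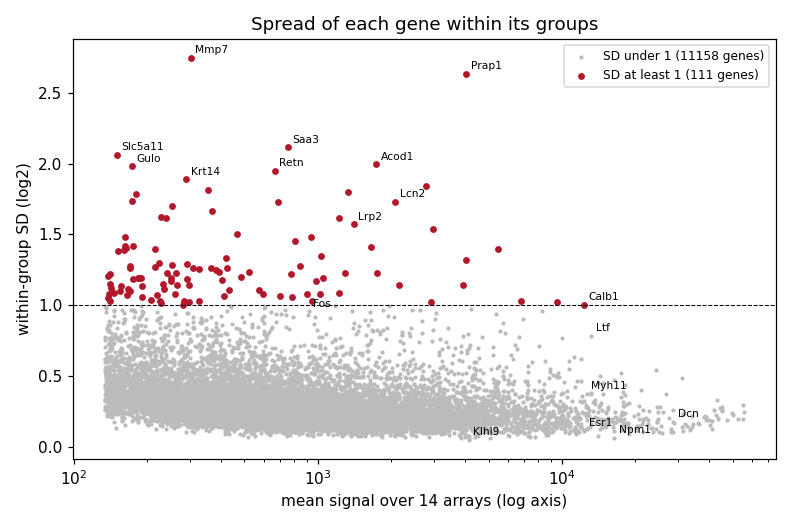
Within-group SD of log2 signal (vertical axis) against mean signal over the 14 arrays (horizontal log axis), with 1 point per gene for 11269 genes. The 111 genes at or above an SD of 1 are red, the dashed line marks that value, and Mmp7 and Prap1 lie highest.

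Klhl9, a ubiquitin ligase adaptor, had the lowest SD of all genes at 0.052 and stayed between 3892 and 4505 signal units on the 14 arrays. Npm1, the nucleolar chaperone nucleophosmin, had an SD of 0.067, Sumo3, a small ubiquitin-like modifier, 0.067, and Chmp4b, a membrane-remodelling ESCRT subunit, 0.069. Esr1, through which the uterus senses oestrogen, was also steady with an SD of 0.11, while the progesterone receptor gene Pgr had 0.40, above the median of all genes.

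The widest spread belonged to Mmp7 and Prap1, both secreted by epithelium. Mmp7, the epithelial protease matrilysin, had the highest SD of all genes (2.74). Its signals were 7385, 35.7, 638 and 712 in KO folinic acid uteri, 117, 7.88 and 742 in KO saline uteri, 209.6, 409 and 1549.95 in control folinic acid uteri, and 855, 25.5, 177 and 1227 in control saline uteri. It was highest in KO folinic acid replicate 1 and lowest in KO saline replicate 2, and every group held uteri that differed more than 7-fold. Prap1, a secreted acidic protein of the uterine epithelium, followed with an SD of 2.63 and signals of 23329, 344, 2599.7 and 13091 in KO folinic acid uteri, 1291, 391 and 16393 in KO saline uteri, 6222, 6534 and 34629 in control folinic acid uteri, and 19214, 397, 669.6 and 20186 in control saline uteri. Its high and low uteri were largely those of Mmp7, with KO folinic acid replicate 2, KO saline replicate 2 and control saline replicate 2 low for both. Saa3, an acute-phase protein made by epithelium and macrophages, reached 20964 in KO folinic acid replicate 1 and 6199.6 in replicate 3 of that group, against 159 in replicate 2.

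S100a8, Il1b and Slfn4, genes of myeloid cells and inflammation, stood apart in 1 uterus. Of 19 neutrophil, eosinophil and mast cell genes on the array, 6 were measured above the filter. The median pairwise correlation of those 6 was 0.22, so the values below are those of single genes. S100a8, a calcium-binding protein of neutrophils, read 4708, 54.7, 682 and 92.3 in KO folinic acid uteri, 134, 86 and 58.9 in KO saline uteri, 265, 419 and 88.8 in control folinic acid uteri, and 76.4, 118, 204 and 106 in control saline uteri. The signal in KO folinic acid replicate 1 lay far above the other 13. Il1b, the inflammatory cytokine interleukin 1 beta, showed the same uterus on top, with 2079.7 there and 66.9 to 414 on the other 13 arrays. Slfn4, a schlafen gene of myeloid cells, had 3361 in that uterus and 59.2 to 527 elsewhere. Without KO folinic acid replicates 1 and 2 the SD of S100a8 was 1.03 and that of Slfn4 0.64, in place of 1.74 and 1.38.

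These genes formed the largest of the groups that varied together. When the 111 genes were clustered by the correlation of their deviations (average linkage, split at a correlation of 0.5), 100 fell into 9 clusters of at least 4 genes. This clustering was chosen after the values were seen and describes them. Cluster 1 held 38 genes, among them Mmp7, Prap1, Saa3, S100a8, the iron-binding lipocalin Lcn2, the complement genes Cfi and Cfb, the mucin Muc4, haptoglobin (Hp), the T cell genes Gzma and Cd3d and the interferon-induced Iigp1 and Cxcl10. Its mean deviation was 1.71 in KO folinic acid replicate 1, 1.04 in control saline replicate 4, -0.89 in control saline replicate 2 and -2.15 in KO folinic acid replicate 2. Both genotypes therefore held uteri at either end.

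**Figure D2:**
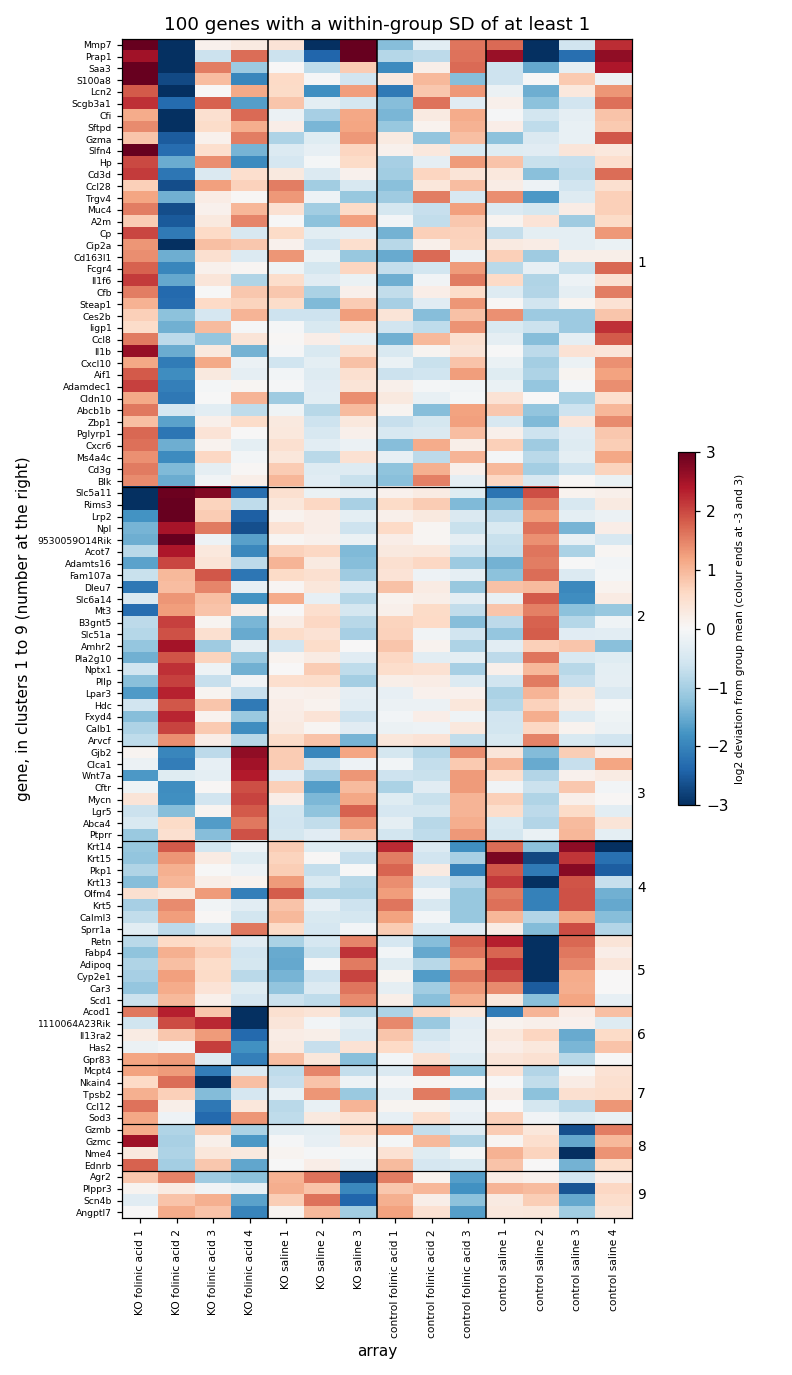
Log2 deviation of 100 genes (rows) from their group mean on each of the 14 arrays (columns, vertical lines between groups), in clusters 1 to 9, from blue (low) to red (high). KO folinic acid replicates 1 and 2 show opposite colours in cluster 1, with mean deviations of 1.71 and -2.15, and the reverse in cluster 2.

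To ask which genes follow a given one, each probe set was regressed with limma on the log2 signal of an anchor gene within groups, with Benjamini-Hochberg adjustment over all probe sets, for 10 anchors. The slope is the log2 change of the gene per log2 unit of the anchor. The first anchor was Ltf, lactoferrin, the iron-binding protein that oestrogen induces in uterine epithelium. Ltf read 24855, 8514, 24484 and 28015 in KO folinic acid uteri, 16448, 4052 and 13296 in KO saline uteri, 9608, 16399.6 and 21831 in control folinic acid uteri, and 8063, 6567, 11363 and 17216 in control saline uteri. Its lowest values were in KO saline replicate 2 and control saline replicate 2. Of 22518 probe sets, 1 passed (0.00444%), Lcn2, which read 21705, 763, 6087 and 13376 in KO folinic acid uteri, 1150.4, 215 and 1856 in KO saline uteri, 486, 3708 and 5219 in control folinic acid uteri, and 1305, 528, 1811 and 3696 in control saline uteri. Lcn2 was highest in KO folinic acid replicates 1 and 4 and lowest in KO saline replicate 2. Its slope on Ltf was 2.01 ± 0.24 (SE), with an adjusted p of 0.0187 from limma. The call held in 9 of 14 fits that left out 1 array, and the adjusted p was 0.577 without KO folinic acid replicate 2. The number of probe sets that followed Ltf was 0 (without KO folinic acid replicate 2) to 27 (without KO saline replicate 2) when 1 array was left out, and moved by over 1.5 times without each array except KO folinic acid replicate 3, control folinic acid replicate 2 and control saline replicates 1 and 3.

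Oestrogen-induced secretory genes as a list varied more than most genes but did not all move together. The list had a median SD of 0.85 over 11 measured members, against 0.27 over all genes, and 3 of 11 reached an SD of 1, against 0.985% of all genes. These were Lcn2, Sprr2d, a cornified envelope protein, and Fxyd4, a regulator of the sodium pump. The median correlation between members was 0.39, against 0.004 between all genes. Fxyd4 ran against Lcn2, with 2030.1, 23760.5, 5280.4 and 2277 in KO folinic acid uteri, 21381, 24492 and 11882 in KO saline uteri, 11666, 14164 and 11168 in control folinic acid uteri, and 6204, 19830.5, 7088 and 8429.9 in control saline uteri. It was lowest in KO folinic acid replicates 1 and 4, where Lcn2 was highest, and the mucin Muc1 (0.77) was highest in the same pair, at 2804 and 3362.

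A second set of genes was high in KO folinic acid replicate 2 and control saline replicate 2, where cluster 1 was low. It held Lrp2 and Lpar3 of the progesterone list, Fxyd4 of the oestrogen-induced list and Calb1 of the gland list. Hdc, also in it, is on the granulocyte and mast cell list. Cluster 2 held 22 genes, with a median pairwise correlation of 0.80, including the inositol transporter Slc5a11, the endocytic receptor Lrp2 (megalin), the sialic acid enzyme Npl, the lysophosphatidic acid receptor Lpar3, which is needed for normal embryo spacing, the calcium-binding protein Calb1 and Hdc, which makes histamine. Its mean deviation was 2.12 in KO folinic acid replicate 2 and 1.37 in control saline replicate 2, and -1.38 and -1.32 in KO folinic acid replicates 1 and 4. Calb1 read 2550.2, 19794, 8365 and 1336 in KO folinic acid uteri, 29458, 25756 and 19579.8 in KO saline uteri, 14430.5, 14659 and 20166 in control folinic acid uteri, and 10246, 23117, 16226 and 13439 in control saline uteri. It was low only in KO folinic acid replicates 1 and 4, and the other 12 uteri lay within 8365 and 29458. Lrp2 read 106, 4142, 631 and 67.3 in KO folinic acid uteri, 4079, 4407 and 3102 in KO saline uteri, 2752, 3041 and 1839 in control folinic acid uteri, and 959, 3885, 1334 and 1455 in control saline uteri, again with that pair lowest. Hdc, at 2309.8 and 799 in the pair, lay between 4149 and 14056 in the other 12 uteri.

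Slc5a11 and Gulo rested on values near the floor of the scale. Slc5a11 read 3.28, 273, 247 and 7.43 in KO folinic acid uteri, 499, 314 and 299 in KO saline uteri, 229, 247 and 162 in control folinic acid uteri, and 55.8, 968, 271 and 284 in control saline uteri. It was close to the floor of 1 in KO folinic acid replicates 1 and 4, and its SD of 2.06 became 1.46 when 16 was added to every signal before the logarithm. Gulo, the last enzyme of vitamin C synthesis, read 1.27 in KO folinic acid replicate 1 and 93.3 to 521 in the other uteri. Its SD was 1.98, 1.05 with 16 added, and 0.41 without KO folinic acid replicates 1 and 2.

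Ihh, Indian hedgehog, is the progesterone target through which the luminal epithelium signals to the stroma. It read 115, 606, 723 and 179 in KO folinic acid uteri, 1035, 1149 and 707 in KO saline uteri, 842, 833 and 465 in control folinic acid uteri, and 506, 1256, 1131 and 453 in control saline uteri. The lowest were KO folinic acid replicates 1 and 4, and within control saline replicates 2 and 3 were high and the other pair low. Of 22518 probe sets, 11 followed Ihh (0.0488%), 3 with a positive and 8 with a negative slope, for 10 genes. Slc5a11, the chloride exchanger Clcn5 and the adenylyl cyclase Adcy9 ran with Ihh, and Slc5a11 had a slope of 2.11 ± 0.30 (SE, adjusted p 0.0245, limma). Prap1, the peroxiredoxin-like Prxl2a, the matrix protein Fbln1, the complement genes C1qa and C1qb, and the leukocyte genes Lcp1 and Cyba ran against it.

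With 1 array left out at a time, Prxl2a gave the firmest of these relations. It read 5858, 1328, 1604 and 6326 in KO folinic acid uteri, 1806, 1329 and 2907 in KO saline uteri, 1945, 2011 and 3567 in control folinic acid uteri, and 3073, 1494, 2018 and 2843 in control saline uteri, highest in the pair of uteri in which Ihh was lowest. Its slope on Ihh was -0.84 ± 0.09 (SE), with an adjusted p of 0.00571 from limma, and it passed in 14 of 14 fits with 1 array left out. No probe set, Prxl2a included, followed Ihh without KO folinic acid replicates 1 and 2 together. The same held with the replicate number added as a block. Fbln1 had a slope of -0.63 ± 0.07 and passed in 13 of 14, with an adjusted p of 0.0595 without KO folinic acid replicate 1. Slc5a11 passed in 10 and C1qa in 8 of 14, with adjusted p values of 0.157 without KO folinic acid replicate 2 and 0.21 without KO folinic acid replicate 1. The count of followers depended on single uteri, at 2 (without KO folinic acid replicate 1) to 835 (without KO folinic acid replicate 3), and moved by over 1.5 times without each array except control folinic acid replicates 1 and 3 and control saline replicate 1.

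The other receptivity genes did not form one block. Of 17 measured genes of the progesterone list, 4 had an SD of at least 1 (Acod1, Lrp2, Il13ra2 and Lpar3), against 0.985% of all genes, and the list's median pairwise correlation was 0.08. Acod1 read 2704, 4556, 1616 and 34 in KO folinic acid uteri, 4449.96, 4206 and 1762 in KO saline uteri, 1434, 4158 and 3368 in control folinic acid uteri, and 349.8, 3032, 1715 and 2785 in control saline uteri. Its low uterus was KO folinic acid replicate 4, with control saline replicate 1 next, while KO folinic acid replicate 1, low for Calb1 and Ihh, was not low for Acod1. Il13ra2, a decoy receptor for interleukin 13, and Has2, which makes hyaluronan, belonged to the same 5-gene cluster as Acod1, and both were lowest in KO folinic acid replicate 4 (49.3 and 26.6). That cluster had a median pairwise correlation of 0.81 over KO arrays and 0.09 over control arrays.

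Another cluster was highest in KO folinic acid replicate 4, the uterus in which the Acod1 cluster was lowest. Cluster 3 held 8 genes, among them Wnt7a, a Wnt ligand of the luminal epithelium, Lgr5, a receptor for R-spondins that marks epithelial progenitors, Cftr, the chloride channel, Gjb2, a gap junction protein, and Clca1. The list of 10 measured ion transport genes, which holds Cftr and Clca1, did not set that uterus apart, with a mean deviation of 0.27 and 4 of 10 genes above their group mean there, and 0.28 in control folinic acid replicate 3. Wnt7a read 147, 381, 401 and 2519 in KO folinic acid uteri, 338, 213 and 1073 in KO saline uteri, 373, 357 and 1393 in control folinic acid uteri, and 849, 326, 661 and 712 in control saline uteri. It was highest in KO folinic acid replicate 4, and in KO saline and control folinic acid replicate 3 was on top. Cftr read 279, 83.5, 312 and 1166 in KO folinic acid uteri, 253, 48.9 and 295 in KO saline uteri, 115, 175 and 530.2 in control folinic acid uteri, and 265, 185, 505 and 273 in control saline uteri, with the same uterus on top in each of those 3 groups. The mean deviation of the cluster was 2.10 in KO folinic acid replicate 4, 1.05 in KO saline replicate 3 and 1.15 in control folinic acid replicate 3, against -1.11 in KO saline replicate 2.

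**Figure D3:**
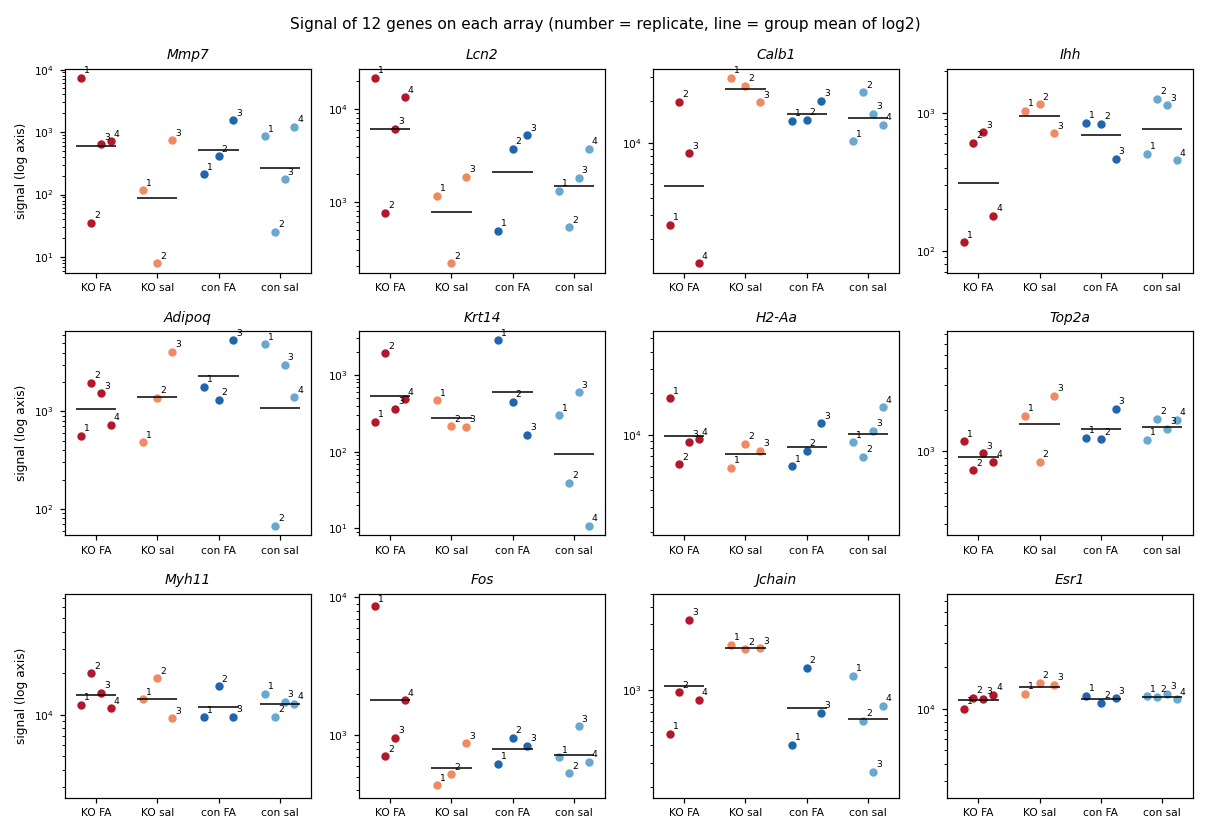
Signal (vertical log axis) of 12 genes on each array, with groups in the order KO folinic acid (KO FA), KO saline (KO sal), control folinic acid (con FA) and control saline (con sal), the replicate number beside each point and a line at the group mean of the log2 values. Mmp7 and Adipoq spread widely within groups, Calb1 and Ihh are low in KO folinic acid replicates 1 and 4, and Esr1 is level.

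Genes of antigen presentation had the highest median correlation among the lists with at least 4 measured members. MHC class II molecules display peptides on macrophages, dendritic cells and B cells, and the 7 measured genes of the class had a median SD of 0.71 and a median pairwise correlation of 0.89. No member reached an SD of 1, against 0.985% of all genes. H2-Aa, an alpha chain, read 18394, 6139, 8906 and 9319 in KO folinic acid uteri, 5775, 8654 and 7664 in KO saline uteri, 5939.5, 7716 and 12130.4 in control folinic acid uteri, and 8847, 6944, 10727 and 15861 in control saline uteri. KO folinic acid replicate 1, control folinic acid replicate 3 and control saline replicate 4 were the high uteri of their groups. H2-Eb1, a beta chain, read 15078, 2374, 5697 and 5369.6 in KO folinic acid uteri, 2090.2, 2899.8 and 3285 in KO saline uteri, 2644, 3711 and 5698 in control folinic acid uteri, and 3943, 2363, 3931 and 8984 in control saline uteri, with the same uteri on top.

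The promoters of H2-Aa and H2-Eb1 are shown because H2-Eb1 followed H2-Aa, as given next, with the smallest p of all probe sets of other genes. In the RefSeq promoters (GRCm38.p6, 250 bases before to 50 after the start), the Y box of class II promoters, searched as CTGATTGG on both strands, was present in 3 of the 5 class II genes with a promoter in the set (H2-Aa, H2-Eb1 and H2-Oa), and in 4.7% of 27025 genes. The Y box is in capitals. The first lies on chromosome 17, chr17:34287774-34288073, minus strand, and the second at chr17:34305617-34305916, plus strand.
H2-Aa: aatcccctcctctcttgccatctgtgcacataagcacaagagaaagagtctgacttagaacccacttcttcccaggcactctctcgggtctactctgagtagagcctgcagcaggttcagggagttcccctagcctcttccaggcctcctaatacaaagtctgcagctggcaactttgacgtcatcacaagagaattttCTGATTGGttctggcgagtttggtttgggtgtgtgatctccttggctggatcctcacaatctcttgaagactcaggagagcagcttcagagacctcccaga
H2-Eb1: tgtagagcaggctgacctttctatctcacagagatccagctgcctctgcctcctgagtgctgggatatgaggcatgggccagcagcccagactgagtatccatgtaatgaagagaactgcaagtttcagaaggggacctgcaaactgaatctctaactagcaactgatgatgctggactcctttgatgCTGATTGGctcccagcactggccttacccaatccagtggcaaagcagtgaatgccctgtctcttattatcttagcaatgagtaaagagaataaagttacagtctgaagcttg

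Macrophage genes followed H2-Aa. Of 22515 probe sets, 202 followed it (0.897%), 191 with a positive slope, for 151 genes. H2-Eb1 had a slope of 1.45 ± 0.13 (SE, adjusted p 0.000411, limma) and Cd74, the invariant chain that chaperones class II, 1.27 ± 0.14 (adjusted p 0.00119). Both passed in all 14 fits that left out 1 array. By list, 5 of 6 class II genes other than H2-Aa, 9 of 17 macrophage genes, 4 of 10 T and NK cell genes and 2 of 23 interferon-stimulated genes passed. None of 18 smooth muscle, 19 stromal and 25 cell division genes did, counts that a share of 0.897% over all probe sets cannot set apart. The slope on H2-Aa was positive for all 23 interferon and all 25 cell division genes. It was positive for 15 of 19 stromal and 2 of 18 smooth muscle genes. An unadjusted p under 0.05 by limma was reached by 21 interferon, 4 cell division, 0 stromal and 0 smooth muscle genes. The macrophage list had a median SD of 0.72 and a median pairwise correlation of 0.77, and its mean deviation was 1.27 in KO folinic acid replicate 1 and -0.91 in replicate 2. All 17 measured macrophage genes were above their group mean in replicate 1. Without these 2 uteri the list's median SD was 0.50 and its median pairwise correlation 0.59.

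C1qa, a chain of the first complement component made by macrophages, showed the range at the level of 1 gene. It read 9158, 918, 1169.6 and 2751 in KO folinic acid uteri, 857, 1531 and 2538 in KO saline uteri, 1812, 1668 and 2077 in control folinic acid uteri, and 2276, 1257, 1704 and 4544 in control saline uteri. The highest were KO folinic acid replicate 1 and control saline replicate 4. The number of probe sets that followed H2-Aa was 6 (without KO folinic acid replicate 1) to 291 (without KO saline replicate 2), and moved by over 1.5 times without 3 other arrays. It was 28 without KO folinic acid replicate 2, 114 without control saline replicate 2 and 42 without control saline replicate 4. Without KO folinic acid replicates 1 and 2 together it was 0, while the class II list kept a median pairwise correlation of 0.82.

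T cell and killer cell genes had a median SD of 0.98, and 4 of 10 had an SD of at least 1 (Gzma, Cd3d, Gzmb and Cd3g), against 0.985% of all genes. The mean deviation of the list correlated with the actin 3′ to 5′ ratio at -0.48 over the 14 arrays, and that of the macrophage list at -0.44. Cd3d, a signalling chain of the T cell receptor, read 1836, 95, 317 and 608 in KO folinic acid uteri, 193, 119 and 173 in KO saline uteri, 136, 439.8 and 368 in control folinic acid uteri, and 244, 81.2, 117 and 620.04 in control saline uteri. Again KO folinic acid replicate 1 and control saline replicate 4 were high. Trgv4, a variable segment of the gamma T cell receptor, read 1716, 279, 884 and 779.5 in KO folinic acid uteri, 311, 114 and 57.3 in KO saline uteri, 199, 1207 and 299 in control folinic acid uteri, and 612, 70.9, 178 and 385 in control saline uteri. Its top uteri in control folinic acid (replicate 2) and control saline (replicate 1) were not those of H2-Aa. Cd163l1, a scavenger receptor that gamma-delta T cells carry, had the same top uterus as Trgv4 in every group, at 2965, 491, 1980.5 and 566 in the KO folinic acid, KO saline, control folinic acid and control saline groups. Gzmb and Gzmc, granule proteases that uterine NK cells make, sat in a cluster of 4 genes, and control saline replicate 3 was the low uterus of its group for both (60.2 and 108).

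Interferon-stimulated genes moved as a block of modest size. The list had a median SD of 0.56 over 23 measured genes and a median pairwise correlation of 0.75, and 3 of 23 (Iigp1, Cxcl10 and Zbp1) had an SD of at least 1, against 0.985% of all genes. The mean deviation was highest in control saline replicate 4 (0.76, 21 of 23 genes above their group mean) and KO folinic acid replicate 1 (0.66, all 23 above), and lowest in KO folinic acid replicate 2 (-1.0). Cxcl10, the chemokine that draws activated T cells, read 648, 67.7, 636 and 257 in KO folinic acid uteri, 129, 157 and 358 in KO saline uteri, 168, 123 and 354 in control folinic acid uteri, and 221, 125, 222 and 656 in control saline uteri. The high uteri were KO folinic acid replicates 1 and 3, KO saline replicate 3, control folinic acid replicate 3 and control saline replicate 4. None of 22518 probe sets followed Ifit1, a translation-blocking interferon target, at the adjusted threshold (0%), while 2038 had an unadjusted p under 0.05 by limma, where 1126 would be 5%. All 22 other interferon genes had a positive slope on Ifit1, with a median of 0.94, and 17 of them an unadjusted p under 0.05.

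The promoters of Ifit1 and Cxcl10 are shown for the interferon-stimulated response element, which many of the block's genes hold. This element, searched on both strands as GAAA, any 2 bases and GAAA again, was present in 12 of the 17 measured interferon genes with a promoter in the set, and in 3.99% of 27025 genes. Each match is in capitals, and starts with TTTC where the element lies on the other strand. The Ifit1 promoter lies at chr19:34640639-34640938, plus strand, and the Cxcl10 promoter at chr5:92348840-92349139, minus strand.
Ifit1: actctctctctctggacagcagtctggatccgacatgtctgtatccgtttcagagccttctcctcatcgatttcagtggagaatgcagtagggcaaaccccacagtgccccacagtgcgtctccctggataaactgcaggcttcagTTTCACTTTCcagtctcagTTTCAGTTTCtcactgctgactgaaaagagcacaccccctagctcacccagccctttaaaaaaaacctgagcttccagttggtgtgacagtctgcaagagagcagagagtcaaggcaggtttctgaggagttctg
Cxcl10: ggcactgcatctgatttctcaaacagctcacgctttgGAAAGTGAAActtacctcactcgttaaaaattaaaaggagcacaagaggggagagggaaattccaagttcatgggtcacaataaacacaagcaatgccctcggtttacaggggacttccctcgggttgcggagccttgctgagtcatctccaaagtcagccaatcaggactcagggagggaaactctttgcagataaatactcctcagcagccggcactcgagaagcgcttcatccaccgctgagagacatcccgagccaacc

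The plasma cell gene Jchain varied with other immunoglobulin genes, but its list did not move as a block. The 4 measured B and plasma cell genes had a median pairwise correlation of 0.22, and -0.06 over control arrays. Of the 3 other than Jchain, 2 had a positive slope on it and 1 passed. Jchain, the joining chain of secreted IgA and IgM, read 487, 968, 3235 and 851 in KO folinic acid uteri, 2132, 1981 and 2018 in KO saline uteri, 404, 1455 and 688 in control folinic acid uteri, and 1271, 603, 259 and 771 in control saline uteri. KO folinic acid replicate 3 was the highest uterus of all, and the 3 KO saline uteri were nearly level. Of 22518 probe sets, 3 followed Jchain (0.0133%), all with a positive slope, for the immunoglobulin genes Igkv8-30 and Igha. Igkv8-30 had a slope of 1.0 ± 0.13 (SE) and an adjusted p of 0.0172 from limma. It passed in 8 of 14 fits with 1 array left out, and the adjusted p was 0.304 without KO folinic acid replicate 3. The count of followers was 1 without KO folinic acid replicate 1, KO folinic acid replicate 3 or control folinic acid replicate 1. It was 0 without control folinic acid replicate 2 or control saline replicate 1 or 3, and 5 without control saline replicate 2.

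Mast cell proteases belonged to a small cluster of their own with Ccl12, Nkain4 and Sod3. Mcpt4, the mouse mast cell chymase, read 303, 319, 31.4 and 99.9 in KO folinic acid uteri, 112, 518 and 115 in KO saline uteri, 181, 755 and 106 in control folinic acid uteri, and 469, 190.3, 359 and 478 in control saline uteri. Tpsb2, a mast cell tryptase, read 265, 208, 51.5 and 89.1 in KO folinic acid uteri, 137, 402 and 74.3 in KO saline uteri, 169, 598 and 82.2 in control folinic acid uteri, and 364, 133, 439 and 456 in control saline uteri. The lowest uterus for both was KO folinic acid replicate 3, and KO saline replicate 2 and control folinic acid replicate 2 were the high uteri of their groups.

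Fat genes formed the cluster with the highest median correlation of the 9. Adipoq, the fat cell hormone adiponectin, read 563, 1956, 1538 and 729 in KO folinic acid uteri, 481, 1375 and 4069 in KO saline uteri, 1774, 1308 and 5332 in control folinic acid uteri, and 4861, 67, 2985 and 1395 in control saline uteri. Control saline replicate 2 lay far below all others, and the high uteri were KO saline replicate 3, control folinic acid replicate 3 and control saline replicate 1. Retn, resistin, read 324, 848, 824 and 447 in KO folinic acid uteri, 385, 525 and 2061 in KO saline uteri, 1068, 629.9 and 5174 in control folinic acid uteri, and 1962, 17.9, 1281 and 509 in control saline uteri, with the same uteri at either end. Of 22518 probe sets, 7 followed Adipoq (0.0311%), all with a positive slope, for Retn (1.06 ± 0.06 SE), the fatty acid carrier Fabp4 (0.99 ± 0.07), the carbonic anhydrase Car3 (0.74 ± 0.06) and the oxidase Cyp2e1 (0.92 ± 0.08). Their adjusted p values from limma were 2.07e-06, 1.52e-05, 6e-05 and 0.000124, and all 4 passed in each of the 14 fits with 1 array left out. The cluster of 6 fat genes, these 5 and Scd1, a fatty acid desaturase, had a median pairwise correlation of 0.95. Its genes were grouped by that correlation. The list of 10 measured fat cell genes, which was not, had a median pairwise correlation of 0.51. Of its 9 genes other than Adipoq, all had a positive slope on Adipoq and 3 passed. In RNA of a whole organ, fewer cells of a type and less RNA per cell cannot be told apart.

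**Figure D4:**
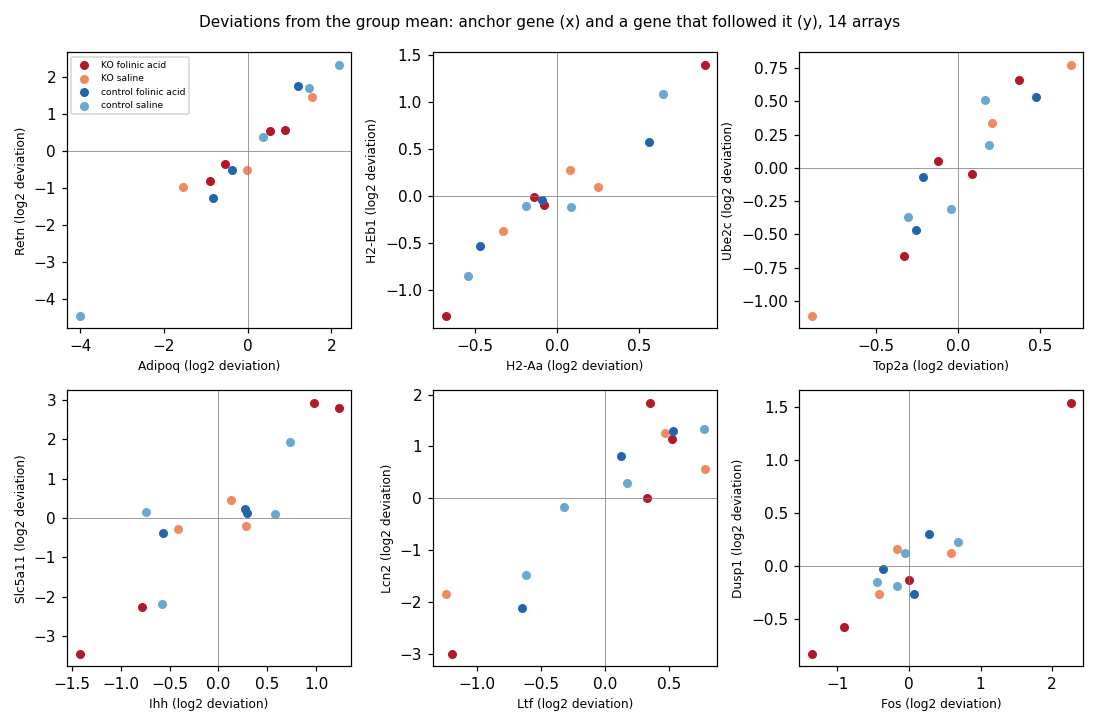
Log2 deviation from the group mean of an anchor gene (horizontal) and of a gene that followed it (vertical), 1 point per array, coloured by group, for 6 pairs. Retn tracks Adipoq on all 14 arrays, and the relation of Dusp1 to Fos leans on 1 KO folinic acid uterus at the upper right.

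Keratins of squamous epithelium, the lining of cervix and vagina, varied together. Krt14, a keratin of basal cells, read 246, 1925, 363 and 479.6 in KO folinic acid uteri, 468, 214 and 211 in KO saline uteri, 2831, 447 and 167 in control folinic acid uteri, and 297, 39.5, 594 and 10.7 in control saline uteri. The high uteri were KO folinic acid replicate 2 and control folinic acid replicate 1, and control saline replicates 2 and 4 were low. Krt13, a keratin of the suprabasal layer, read 301, 1459.9, 816 and 779 in KO folinic acid uteri, 886, 267 and 204 in KO saline uteri, 1769, 479.9 and 365 in control folinic acid uteri, and 519, 12.2, 448 and 74.1 in control saline uteri, and control saline replicates 2 and 4 were again lowest. Of 6 measured squamous genes, 4 had an SD of at least 1 (Krt5, Krt13, Krt14 and Krt15), against 0.985% of all genes, with a list median SD of 1.56 and a median pairwise correlation of 0.85. The keratin cluster also held Pkp1, a desmosome plaque protein, and Olfm4, a secreted glycoprotein. Pkp1 read 10.7 and 13.8 in control saline replicates 4 and 2 and 61.9 to 840.4 in the other 12 uteri.

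Smooth muscle genes moved together over a narrow range. The 18 measured genes had a median SD of 0.36 and a median pairwise correlation of 0.74. Their mean deviation was 0.36 in KO folinic acid replicate 2, 0.35 in KO saline replicate 2 and 0.53 in control folinic acid replicate 2, against -0.31 in KO saline replicate 3. Myh11 read 11848, 20003, 14389.9 and 11155 in KO folinic acid uteri, 12934, 18323 and 9422 in KO saline uteri, 9579, 16087 and 9686 in control folinic acid uteri, and 14204, 9646, 12359.8 and 11988 in control saline uteri, with the same uteri at the top. None of 22517 probe sets followed Myh11 at the adjusted threshold (0%), and 2307 had an unadjusted p under 0.05 by limma. Without KO folinic acid replicate 3 there was 1 follower, and without control folinic acid replicate 1 there were 3. All 17 other smooth muscle genes had a positive slope, 16 of them with an unadjusted p under 0.05. Lmod1, an actin nucleator, had a slope of 1.39 ± 0.21 (SE) and an adjusted p of 0.0705. All 25 cell division genes had a negative slope on Myh11, and 19 of these had an unadjusted p under 0.05.

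The connective tissue was steady, while its anchor gene gave 1 of the longest lists of followers. Stromal and matrix genes had a median SD of 0.28, close to that of all genes, and a median pairwise correlation of 0.04. The mean deviation of the list correlated with the actin 3′ to 5′ ratio at -0.63 over the 14 arrays. Dcn, decorin, had an SD of 0.18. Col1a1, the main collagen of the stroma, was followed by 224 of 22517 probe sets (0.995%), 78 with a positive and 146 with a negative slope. Its other measured probe set, however, ran against the one used as the anchor, with a correlation of -0.81 over the 14 arrays. The count was 0 (without KO folinic acid replicate 2) to 673 (without KO folinic acid replicate 3) when 1 array was left out, moved by over 1.5 times without each of the 14, and was 1 after quantile normalization. The calls are those of 1 probe set.

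Markers of neighbouring organs were measured unevenly. Ovgp1, the oviduct's secreted glycoprotein, ranged over 1329 to 14999, while the cilia gene Foxj1 of the same list reached no more than 93.4. Upk3b and Msln, genes of the serosal mesothelium, had SDs of 0.67 and 0.66, and both were highest in control saline replicate 3 (3969.5 and 1788) and lowest in KO folinic acid replicate 3 (605 and 222). None of 8 nerve genes on the array was measured above the filter. Of 13 ovary genes 3 were, with a median SD of 0.50.

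Cell division genes varied together. Top2a, the topoisomerase that untangles replicated chromosomes, read 1182, 727, 966 and 838 in KO folinic acid uteri, 1806, 842 and 2512 in KO saline uteri, 1253, 1219 and 2021 in control folinic acid uteri, and 1215, 1716, 1459 and 1684 in control saline uteri. KO saline replicate 3 and control folinic acid replicate 3 were high and KO folinic acid replicate 2 and KO saline replicate 2 low. Ube2c, the ubiquitin-conjugating enzyme of the anaphase complex, read 614, 246, 377 and 402 in KO folinic acid uteri, 1308, 478 and 1766 in KO saline uteri, 738, 561 and 1120.5 in control folinic acid uteri, and 729, 1065, 761 and 1341 in control saline uteri. Of 22517 probe sets, 20 followed Top2a (0.0888%), all with a positive slope and each for another gene. All 10 with the smallest p values were genes of the cell cycle, among them Racgap1, Ube2c, Kif22, Mcm6, Cdc20, Cdk1 and Ccnb2. Ube2c had a slope of 1.29 ± 0.16 (SE, adjusted p 0.0124, limma) and passed in 11 of 14 fits, and Ccnb2, a cyclin of mitosis, had 1.41 ± 0.21 (adjusted p 0.026) and passed in 7. The adjusted p of Ube2c was 0.354 without KO saline replicate 2. The count was 0 (without KO saline replicate 2) to 26 (without control saline replicate 3) and moved by over 1.5 times without each array except KO folinic acid replicates 2 and 4, KO saline replicate 1 and control saline replicates 2 and 3.

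The cell division list as a whole had a median SD of 0.47 over 25 measured genes and a median pairwise correlation of 0.72, which was 0.73 without KO folinic acid replicates 1 and 2. Its mean deviation was 0.59 in KO saline replicate 3 and -0.70 in KO saline replicate 2, so uteri of a single group lay at both ends. All 24 list genes other than Top2a had a positive slope on it, and 4 of them passed. Mki67, the proliferation marker, read 2629 in the high and 821 in the low of these uteri. In RefSeq promoters, CCAAT (both strands) was present in 19 of 22 cell division genes and in 41.1% of 27025 genes, and the cell-cycle homology element TTTGAA (both strands) in 11 of 22 and in 20.2%.

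Immediate-early genes, which respond within minutes to stimuli including tissue handling, had 1 uterus that stood out. Fos, a subunit of the AP-1 factor, read 8605, 705, 963 and 1801 in KO folinic acid uteri, 437, 522 and 875 in KO saline uteri, 623, 965 and 842 in control folinic acid uteri, and 696, 531, 1161 and 645 in control saline uteri. Far above the rest was KO folinic acid replicate 1, with replicate 4 of that group next. Dusp1, a phosphatase that shuts off MAP kinases, read 3912 there and 679 to 1231 elsewhere. Of 22518 probe sets, 18 followed Fos (0.0799%), 14 with a positive slope, for 17 genes. Dusp1 had a slope of 0.61 ± 0.07 (SE, adjusted p 0.0181, limma), and passed in 12 of 14 fits. Of the immediate-early list, 2 of 21 other genes passed (Dusp1 and Ier3), and of the macrophage list 4 of 17. Positive followers included Fcrls, a microglial and macrophage Fc receptor-like gene, and the chemokines Ccl6 and Ccl9, and negative ones Ptch1, the receptor and target of hedgehog signals.

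The relations of Dusp1 and Gulo to Fos leaned on that uterus. Without KO folinic acid replicate 1 the adjusted p of Dusp1 was 0.208 and its slope was 0.40. The SD of Fos was 0.96 with all arrays and 0.48 without KO folinic acid replicates 1 and 2. The number of followers was 0 (without KO folinic acid replicate 2) to 128 (without KO folinic acid replicate 1) and moved by over 1.5 times without each array except KO saline replicate 2 and control folinic acid replicate 2. Gulo, called as a follower with a slope of -1.82 ± 0.27, had a slope of -0.44 without KO folinic acid replicate 1.

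Set side by side, the lists differed both in spread and in how closely their members moved together. Several did both, as the squamous list, with a median SD of 1.56 and a median pairwise correlation of 0.85. That correlation was 0.59 for T and NK cell genes, 0.51 for fat genes and 0.22 for granulocyte and mast cell genes. It was 0.40 for the ribosomal proteins, which had little spread. Granulocyte and mast cell genes (1.08), T and NK cell genes (0.98) and fat genes (0.93) followed the squamous list in median SD. The lowest were the ribosomal proteins (0.16), the respiratory chain (0.17) and the proteasome (0.18). None of their 17, 23 and 20 measured genes had an SD of at least 1, against 0.985% of all genes, a share too low for that count to set them apart. Circadian clock genes had 0.40 and a low median pairwise correlation (0.07), with the output gene Dbp at an SD of 0.73. A low median cannot tell unrelated genes from sets of genes that move against each other. Epithelial markers as such had a median SD of 0.40, below the secretory genes that the same cells make.

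**Figure D5:**
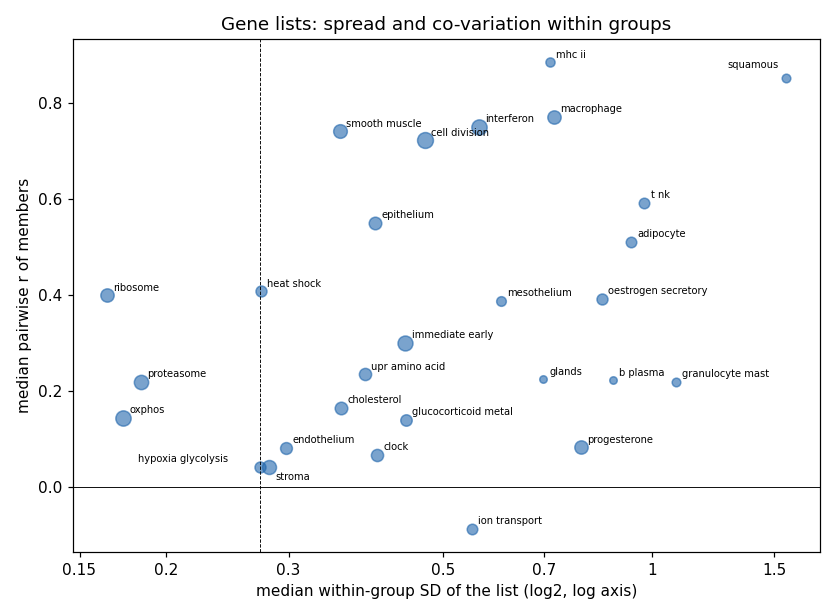
Median within-group SD of each list with at least 4 measured genes (horizontal log axis) against the median correlation between its members over 14 deviations (vertical axis), with point size rising with the number of measured genes and a dashed line at the median SD of all genes (0.27). MHC class II and squamous genes lie at the top, and ribosomal and respiratory chain genes at the left.

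The overlap of variable genes between genotypes was as follows. Over the 7 KO arrays 197 of 11269 genes (1.75%) had an SD of at least 1, and over the 7 control arrays 87 (0.772%). Of these, 45 were shared, which is 22.8% of the KO set and 51.7% of the control set. The median SD was 0.27 over KO and 0.25 over control arrays. Across the 6105 pairs of the 111 genes, the 709 pairs with a correlation of at least 0.8 over KO arrays had a median correlation of 0.62 over control arrays, against 0.009 over all pairs. As the 111 genes were chosen for their spread, these values describe them.

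A few uteri carried much of the spread. Over all measured genes, KO folinic acid replicate 2 and control saline replicate 3 deviated most from their group mean (root mean square, scaled for group size, 0.51 and 0.49), and control saline replicate 1 least (0.28). The largest deviation lay in KO folinic acid replicate 2 for 37 of the 111 genes, and in KO folinic acid replicates 1 and 4 for 17 each. The first principal component of the deviations took 29.1% of their variance, the second 18.8% and the third 11.1%. On the first, KO folinic acid replicate 2 (0.60) and control saline replicate 3 (0.41) scored highest and KO folinic acid replicate 1 (-0.42) and control saline replicate 4 (-0.35) lowest. Its largest positive loadings were those of Gulo, Rims3, Slc5a11 and Krt14, and its largest negative ones those of Prap1, Mmp7 and Saa3. Control saline replicate 3 did not have every such gene high, with a deviation of 2.68 for Krt14 but 0.09 for Slc5a11 and -0.48 for Rims3.

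The first component moved with RNA integrity by the ratio of 3′ to 5′ GAPDH signal, which was added after the data were seen. Its correlation with the log2 of that ratio was r = 0.80 (exact permutation within groups, two-sided p = 0.00309, adjusted over 3 components and both ratios p = 0.0185) and rho = 0.78 (p = 0.0103, adjusted p = 0.0619). Without KO folinic acid replicates 1 and 2, the 2 arrays farthest from the median score, r was 0.84. Its correlation with the log2 beta-actin 3′ to 5′ ratio was r = 0.57 (exact permutation p = 0.100, adjusted p = 0.30) and rho = 0.67 (p = 0.0336, adjusted p = 0.10), and r = 0.62 without those 2 arrays. Of the other 4 relations, for components 2 and 3, none had a permutation p under 0.05. None of 22519 probe sets followed the actin ratio at the adjusted threshold (0%), with 3355 at an unadjusted p under 0.05 by limma, but 2228 did so without KO folinic acid replicate 3. As a description over the 14 arrays, with no test, the mean deviation of a list correlated with the actin ratio at -0.87 for endothelial genes, -0.80 for skeletal muscle genes, 0.61 for gland genes and -0.62 for proteasome genes. The correlation was 0.14 for oestrogen-induced secretory genes, 0.33 for progesterone-response genes, -0.26 for class II, -0.17 for interferon-stimulated, -0.19 for cell division, -0.05 for smooth muscle and 0.20 for fat genes. Correlations of the lists with the GAPDH ratio, to which the first component was more closely related, were not computed. Low values for the actin ratio therefore do not show that a list was free of RNA integrity. The part of RNA integrity in the results on followers was not tested.

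Relations between the 10 anchor genes themselves did not pass adjustment. Over 45 pairs, 10 had an exact permutation p under 0.05 (two-sided, within groups) and none an adjusted p under 0.05 by r or by rho. The smallest p was for Top2a and Ifit1 (r = 0.63, p = 0.0082, rho = 0.74, p = 0.0080, adjusted p = 0.17 and 0.22), with r = 0.73 without the 2 arrays farthest from the median of Top2a. Myh11 and Top2a had r = -0.76 (p = 0.0164) and rho = -0.70 (p = 0.0258), at the same adjusted p values, and r = -0.77 without 2 arrays. Fos and H2-Aa had r = 0.72 (p = 0.0220) and rho = 0.71 (p = 0.0180), again at those adjusted values, and r = 0.35 without KO folinic acid replicates 1 and 2.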

How the data were processed

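RNA of 14 uteri was measured on one-colour Affymetrix arrays. The deposited table holds 1 intensity value per probe set and array, which the authors made with MAS5, per the submitters' processing notes, and the trimmed mean of every array is 500. No background correction or normalization was added. Signals below 1, 0.505% of values, were set to 1, and log2 was taken. Of 45101 probe sets 64 are controls, 34945 of the rest have 1 symbol, 932 several and 9160 none, and 34741 matched RefSeq. Probe sets with a mean log2 signal at or above the median (signal 134) were kept, 22519 in all, and the brightest with 1 symbol stood for each of 11269 genes. Arrays give no count of molecules, so their number limits the precision.

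Spread is the residual SD of a limma 3.58.1 fit (R 4.3.3) of 4 group means, and followers come from the same fit with an anchor's log2 signal added and a moderated test with a trend, adjusted by Benjamini-Hochberg over all probe sets kept. Members, lists and tests were chosen with earlier results of these data known. Named are the 30 genes of highest and 10 of lowest SD, the 10 of highest SD relative to the trend, up to 3 per list, up to 10 per anchor and the leading genes of 3 components, with a few others of known uterine function or cluster membership (such as Esr1, Pgr, Hdc, Muc1, Il1b and Has2) chosen after their values were seen.

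Groups share replicate numbers. Over 19 pairs of arrays with the same number, deviations had correlations of -0.34 to 0.35 with a median of 0.01. These take all genes together and cannot show whether some genes vary with the number. Whether the number marks shared handling was not tested. The 2 pairs of arrays within a group whose titles share a number had correlations of -0.28 (control folinic acid) and -0.41 (control saline). Deviations from a shared group mean run against each other by construction. The other pairs of control folinic acid had -0.63 and -0.57, and those of control saline -0.66 to 0.13. Whether uteri with a shared title number are related was not tested. Alternatives were quantile normalization, an added constant of 16, other filters, 1 probe set per gene, a replicate block, leaving out 1 array, leaving out KO folinic acid replicates 1 and 2, adjusting over all anchors and the GAPDH ratio for actin, the last 3 chosen after seeing the data.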

Additional observations from a re-analysis of the deposited data

Results flagged for a closer look

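In the groups of 4 arrays, 274 sets of values (the genes named with signals and the gene lists, in KO folinic acid and in control saline) were examined for 1 array whose gap to its nearest neighbour took nearly all of the group's range, by Dixon's test at its 95% critical value, which marks about 1 set in 20 by chance. It marked 7 of 274 (2.55%), which is below that share. Groups of 3 were not examined.

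Chmp4b, the ESCRT subunit among the steadiest genes, was low in KO folinic acid replicate 4 (signal 6833, with a gap of 0.897 of the range) and in control saline replicate 3 (signal 7221, 0.837 of the range). Il13ra2, the interleukin 13 decoy receptor, was low in control saline replicate 3 (signal 156, 0.848). Agr2, the secretory disulfide isomerase, and Plppr3, a brain-enriched membrane protein, were low in the same uterus (signals 94.8 and 21, with gaps of 0.888 and 0.893). Ltf was low in KO folinic acid replicate 2 (signal 8514, 0.887). The mean deviation of ion transport genes was low in control saline replicate 2 (-0.23, 0.842). Every one of these 7 was on the low side.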

How the results depend on the processing

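The 111 genes with an SD of at least 1 became 4094 with no filter on signal and 52 among the brightest 35% of probe sets, and were 88 to 134 when 1 array was left out. The median SD became 0.39 with no filter and was 0.26 to 0.28 with 1 array left out. The first component took 14.5% of the variance with no filter, 31.9% among the brightest 35% and 32.0% with the replicate block, and 27.0% to 32.6% with 1 array left out. Followers depended more on the settings. After quantile normalization, Ltf had 4, Myh11 2 and Col1a1 1. With no filter, Ltf had 5, Adipoq 13 and Col1a1 0, and among the brightest 35% Col1a1 had 547, Top2a 13 and H2-Aa 126. With 1 probe set per gene, Ltf had 3, Adipoq 4, Col1a1 3 and Fos 41, where fewer features were tested. The replicate block left 0 for Ltf, Ihh, Col1a1, Top2a and Jchain, 6 for Fos and 23 for H2-Aa, and kept 7 for Adipoq. Without KO folinic acid replicates 1 and 2 together there were 0 for Ltf, Ihh, Col1a1 and H2-Aa, 12 for Adipoq, 9 for Top2a, 35 for Fos and 1 for Jchain. Adjusted over the 10 anchors together, Ltf had 5, Myh11 5, Col1a1 15, H2-Aa 56 and Jchain 6. With 1 array left out, the ranges were 0 to 27 for Ltf, 2 to 835 for Ihh, 6 to 8 for Adipoq, 0 to 3 for Myh11, 0 to 673 for Col1a1, 0 to 26 for Top2a, 0 to 128 for Fos, 6 to 291 for H2-Aa, 0 to 0 for Ifit1, 0 to 5 for Jchain and 0 to 2228 for the RNA integrity ratio, and 0 to 0 of the pairs of anchors passed. With 16 added to signals, the counts of followers stayed within 1.5 times. A change of sign was looked for only in the 10 correlations between anchors with an exact permutation p under 0.05. None changed sign under quantile normalization, the added constant, the other filters, 1 probe set per gene, the replicate block or that 2-array omission. Slopes of followers were recorded only with 1 array left out. The cause of each change not given here was not tested.

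The labels do not say that the replicate number pairs uteri, and the correlations given with the processing cannot settle it. Why calls were lost under the block was not tested. Dim genes limit the description, since 64 of the 111 lie in the dimmest quartile, and signals near the floor inflate the SD of Slc5a11 and Gulo. The log2 deviations of an array are relative to a group mean that the array itself enters, and groups of 3 and 4 uteri are small. The fit assumes the same spread in all 4 groups.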

Other observations

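A cluster of 4 dim genes, Agr2, Plppr3, Scn4b and Angptl7, had its low uteri in replicate 3 of KO saline (mean deviation -2.01), control folinic acid (-1.59) and control saline (-1.43) and in KO folinic acid replicate 4 (-1.26). Agr2, a disulfide isomerase of secretory cells, read 354, 566, 97.4 and 86.1 in KO folinic acid uteri, 198, 295 and 15 in KO saline uteri, 743, 273 and 81.5 in control folinic acid uteri, and 159.9, 151, 94.8 and 158 in control saline uteri. Scn4b, a subunit of sodium channels, read 109, 250.3, 291 and 45.5 in KO folinic acid uteri, 314, 579.7 and 35.9 in KO saline uteri, 416, 228 and 84.7 in control folinic acid uteri, and 169, 232, 48.3 and 201 in control saline uteri. In both genes these 4 uteri were the lowest of their groups. The same uteri in KO folinic acid, KO saline and control folinic acid were the highest of their groups for Wnt7a and Cftr.

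Heat shock genes, which like the immediate-early genes respond to stress, were near the median spread of all genes, with a median SD of 0.27 over 11 measured members.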
